A study of Drosophila melanogaster with 4 samples.

Results

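Genes of the presynaptic active zone were measured in dvpdf neurons of Drosophila melanogaster brains. The 7 genes, of 14162 gene entries listed per library, were chosen by name. They are the scaffold genes brp, Rim, Liprin-alpha and RhoGAP100F, the calcium channel gene cac, the membrane scaffold gene dlg1 and the synapsin gene Syn. The study has 2 libraries labelled NonA RNAi and 2 labelled control, all of mRNA that was extracted and amplified from dvpdf neurons. In the first group nonA, the gene of a nuclear RNA-binding protein, was to be lowered by RNA interference in these cells. The sample titles begin with Dvpdf, and the sources used here do not say whether this names a driver. They do not give the genotypes, the age of the flies, the hour of collection or the number of brains pooled. No label ties a replicate to its own flies or dissection, so each p-value reflects the spread between the libraries, and that spread could be technical alone.

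The active zone is the patch of presynaptic membrane where vesicles fuse and transmitter is released. Scaffold proteins gather voltage-gated calcium channels beside docked vesicles, and synapsin holds further vesicles in reserve behind them. In Drosophila clock neurons, presynaptic terminals of the PDF-releasing cells are known to be remodelled over the day.

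Gene reads per library ranged from 8419248 to 9832771, and 1 read was worth 0.102 to 0.119 reads per 1000000 gene reads, the scale called CPM here. The targeted gene nonA was at 168 and 283 CPM under the NonA RNAi label, against 256 and 241 CPM in the controls. The groups overlapped, so directions given for the libraries labelled NonA RNAi rest on the label alone. Reads were found in every library for all 10 marker genes of PDF and clock neurons, among them Pdf, tim, cry and per, and for all 12 pan-neuronal genes. The summed pan-neuronal level was 5733 and 8986.5 CPM under the NonA RNAi label, against 8500.4 and 6688 CPM in the controls. Reads of glial, photoreceptor, fat body and muscle markers were also present, and their levels are given after the gene results.

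None of the 7 genes passed a test for a difference between the groups, and for each gene at least 1 library labelled NonA RNAi lay within the range of the controls or the reverse. Their log2 folds, NonA RNAi over control, ran from -0.60 to 0.06, with 2 genes above and 5 below 0. In edgeR's quasi-likelihood test the adjusted p-values, with Benjamini-Hochberg adjustment over all genes, lay between 0.962 and 0.999. Without adjustment 0 of the 7 had a p under 0.05, and DESeq2 and limma also called 0. Over all 7248 genes tested, edgeR called 0%, with 358 at an unadjusted p under 0.05 (4.94%, or 4.86% with the minimum of 1 CPM described next), and DESeq2 called 1.86%. For 0 of the 7 did both libraries labelled NonA RNAi lie above or below both controls, where 32.1% of the genes tested did in either direction (32.8% with that minimum). Since 2 against 2 libraries cannot give an exact two-sided permutation p below 0.333, no such test is given. brp, at a mean of 0.73 RPKM, fell under the minimum of 1 RPKM for testing and was fitted with a minimum of 1 CPM instead, over 9404 genes.

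**Figure D1:**
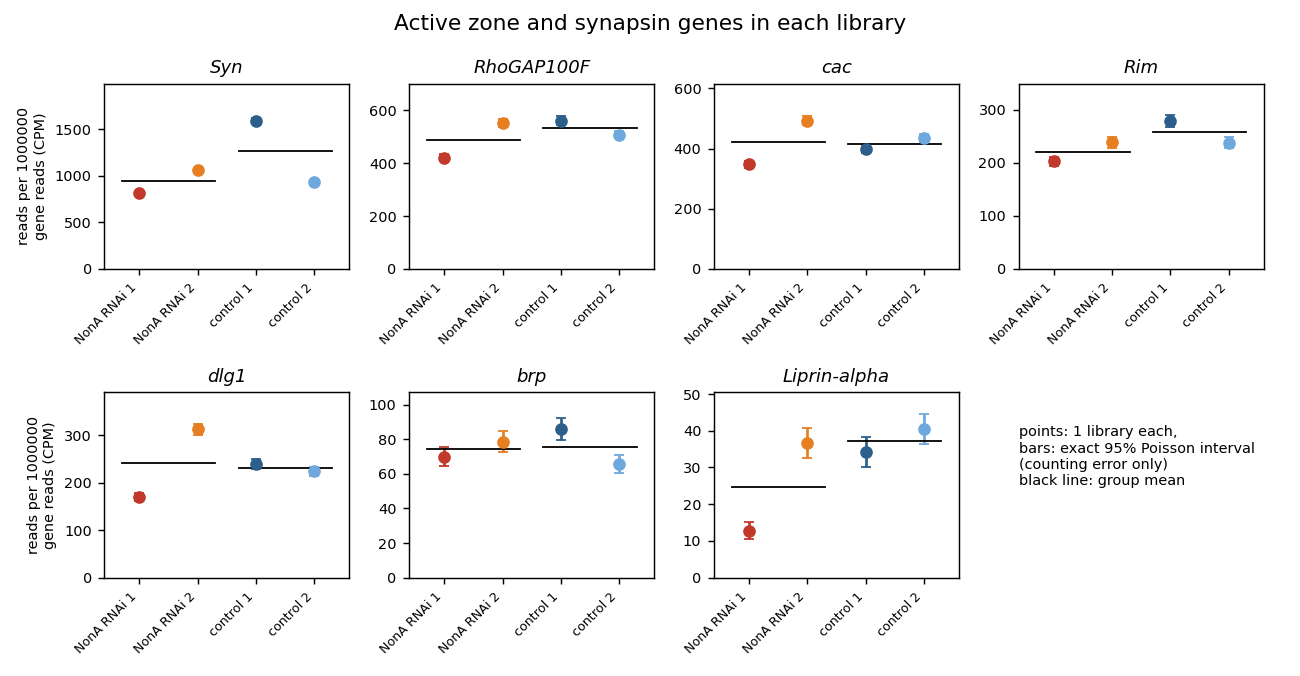
Level of each of the 7 genes in each library, in reads per 1000000 gene reads (CPM), with the axis from 0. Points are single libraries, bars are exact 95% Poisson intervals that cover counting error only, and black lines are group means. The groups overlap for every gene, and Liprin-alpha has its lowest point, 12.6 CPM, in NonA RNAi replicate 1.

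Bruchpilot, encoded by brp on chromosome arm 2R, is the ELKS-related protein that builds the electron-dense T-bar of the fly active zone and clusters calcium channels under it. brp had 677 and 674 reads under the NonA RNAi label, against 722 and 644 in the controls. This corresponded to 70.0 and 78.8 CPM under the NonA RNAi label and to 85.8 and 65.5 CPM in the controls. Both values of the libraries labelled NonA RNAi lay between the controls. The means were 74.4 ± 6.20 CPM under the NonA RNAi label and 75.6 ± 14.3 CPM in the controls (SD, n = 2 each). The fitted log2 fold was -0.02 ± 0.44 (SE) and edgeR's adjusted p was 0.998. The 95% interval of the fold ran from 0.473 to 2.05. This interval is not a limit of detection, and larger changes could also miss the threshold. With the RPKM minimum, Pdf had a fitted fold of 14.7 and an adjusted p of 0.817 in edgeR. The sign of the small brp difference turned under TMM scaling, where the log2 fold was 0.02. It also turned under scaling to pan-neuronal genes, where the log2 fold of brp was 0.08.

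Rim, on 3R, encodes a protein that binds the vesicle GTPase Rab3 and the calcium channel and takes part in vesicle priming. Its level was 203 and 239 CPM under the NonA RNAi label, against 279.6 and 238 CPM in the controls. NonA RNAi replicate 2 and control replicate 2 were nearly equal, and the other libraries lay on either side of them. Rim was the 1 gene of the 7 whose log2 fold was larger in size than the pooled SD within groups, 0.17 on the log2 scale. Syn fell just short, with a log2 fold of -0.425 against an SD of 0.427. These SDs rest on 2 libraries per group, and the share of all genes beyond this mark was not computed. For Rim the log2 fold was -0.23 ± 0.43 (SE), with a 95% interval from -1.28 to 0.82 and an adjusted p of 0.986 in edgeR.

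RhoGAP100F, on 3R, is the gene of Syd-1, an early organiser of the active zone that recruits Liprin-alpha and neurexin. It was at 421 and 553 CPM under the NonA RNAi label, against 561 and 508 CPM in the controls. NonA RNAi replicate 1 was the low library, and replicate 2 of that group lay between the controls. The log2 fold was -0.14 ± 0.44 (SE), with an adjusted p of 0.991 in edgeR.

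Liprin-alpha, on 2L, encodes a scaffold that binds the receptor phosphatase Lar and sets the size of the active zone. It had the fewest reads of the 7, 122 and 313 under the NonA RNAi label against 287 and 397 in the controls. The levels were 12.6 and 36.6 CPM under the NonA RNAi label and 34.1 and 40.4 CPM in the controls. NonA RNAi replicate 1 was therefore low on its own, while replicate 2 lay between the controls. The exact 95% Poisson interval of the low library was 10.5 to 15.1 CPM and that of NonA RNAi replicate 2 was 32.6 to 40.9 CPM, so these replicates differed by more than counting error. Because of the amplification a read is not a separate molecule, and such intervals cover counting error only. The log2 fold was -0.60 ± 0.65 (SE), with a 95% interval from -2.20 to 1.01 and an adjusted p of 0.962 in edgeR. A single library decided its size: leaving out NonA RNAi replicate 1 gave a log2 fold of -0.03 and leaving out NonA RNAi replicate 2 one of -1.56, with adjusted p-values of 1 and 0.438.

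The pore-forming subunit of the presynaptic Cav channel is encoded by cac (cacophony), on X, and carries the calcium current that triggers release at fly synapses. cac was at 348 and 493 CPM under the NonA RNAi label, against 398 and 434 CPM in the controls. The libraries labelled NonA RNAi thus held both the lowest and the highest value, with means of 420.3 ± 103 CPM under the NonA RNAi label and 416 ± 24.9 CPM in the controls (SD, n = 2 each). The log2 fold was 0.01 ± 0.44 (SE), its adjusted p in edgeR was 0.999, and the 95% interval of the fold ran from 0.472 to 2.16. The sign of this value turned with limma on log2 CPM, to -0.0058 with a pseudocount of 1.

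The 6 other subunit genes of voltage-gated calcium channels were all read in every library. stj, which encodes an alpha2-delta subunit that fly synapses need for cac at the terminal, was at 576 and 470.1 CPM under the NonA RNAi label, against 435 and 366 CPM in the controls. It was the 1 subunit gene of the 6 with groups apart, where 15.4% of all genes tested lay above both controls (15.2% with the CPM minimum), and its log2 fold of 0.39 ± 0.43 (SE) had an adjusted p of 0.962 in edgeR. CG42817, the alpha2-delta gene Ca-Ma2d, was at 272 and 131 CPM under the NonA RNAi label and at 178 and 161 CPM in the controls. The third alpha2-delta gene, CG4587 or stol, was at 20.6 and 67.0 CPM under the NonA RNAi label against 63.0 and 22.6 CPM in the controls, so that its replicates lay farther apart than the group means. Ca-beta, the gene of the cytoplasmic beta subunit, was at 39.6 and 62.4 CPM under the NonA RNAi label against 35.5 and 57.8 CPM in the controls. In edgeR 0 of the 6 passed (0 had an unadjusted p under 0.05), DESeq2 called 0, and 3 of them, Ca-alpha1T, Ca-beta and CG4587, were tested with the CPM minimum.

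Levels between the pore-forming subunits were compared per length of annotated exon. cac made up 47.2% and 49.3% of the summed level of cac, Ca-alpha1D and Ca-alpha1T under the NonA RNAi label, against 42.6% and 50.1% in the controls. Ca-alpha1D, the L-type channel gene, held 39.1% and 36.3% under the NonA RNAi label and 38.9% and 34.3% in the controls. Ca-alpha1T, the T-type channel gene, held 13.7% and 14.4% under the NonA RNAi label and 18.5% and 15.6% in the controls. On this scale the order cac, Ca-alpha1D, Ca-alpha1T held in each of the 4 libraries. It depends on the length used. By the deposited mean RPKM Ca-alpha1D came first at 4.26, before cac at 2.88 and Ca-alpha1T at 0.625. The share of Ca-alpha1T was the 1 share of the 3 whose groups did not overlap. For comparison, 32.8% of all genes with the CPM minimum had groups apart in CPM. The 3 shares add up to the whole and so depend on each other. In CPM the groups of Ca-alpha1T overlapped, at 111 and 158 under the NonA RNAi label against 190 and 148 in the controls.

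**Figure D2:**
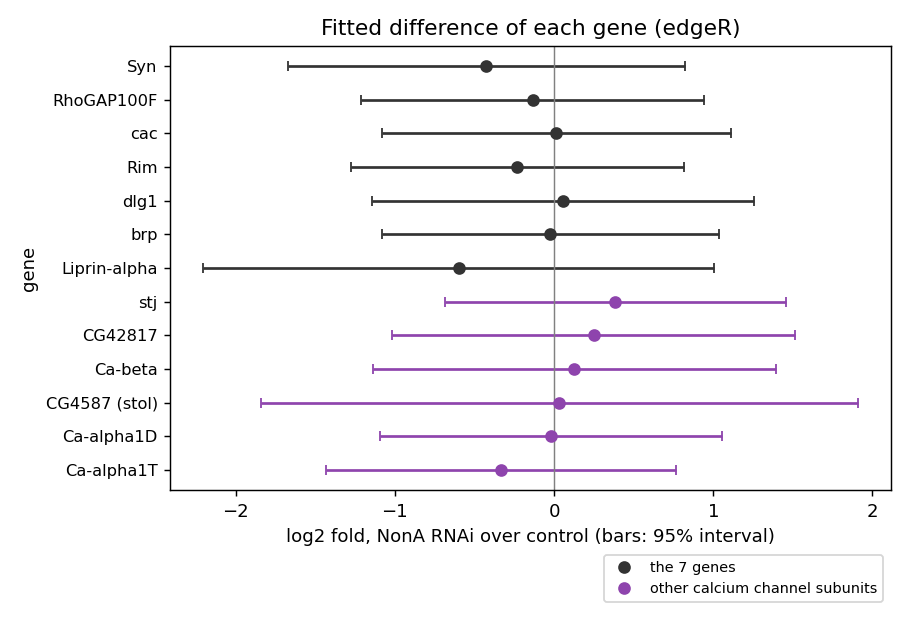
Fitted log2 fold, NonA RNAi over control, of the 7 genes and of the 6 other calcium channel subunit genes, from edgeR, with 95% intervals as bars. Every interval spans 0, and that of Liprin-alpha runs from -2.20 to 1.01.

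Discs large, encoded by dlg1 on X, is a scaffold of the PSD-95 family that holds ion channels and adhesion molecules at fly synapses and also sits in epithelial junctions. dlg1 was at 169 and 313 CPM under the NonA RNAi label, against 239 and 225 CPM in the controls. The controls lay close together and between the values of the libraries labelled NonA RNAi. The log2 fold was 0.06 ± 0.49 (SE), with an adjusted p of 0.997 in edgeR; it turned to -0.010 with limma on log2 CPM with a pseudocount of 1. It was 0.43 without NonA RNAi replicate 1 and -0.45 without NonA RNAi replicate 2.

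Synapsin, encoded by Syn on 3R, tethers vesicles to each other and to actin and is released from them by phosphorylation. Syn had 7941 and 9110 reads under the NonA RNAi label, against 13422 and 9213 in the controls. The levels were 821 and 1064.5 CPM under the NonA RNAi label and 1594 and 937 CPM in the controls. Control replicate 1 was the high library, while control replicate 2 lay between the values of the libraries labelled NonA RNAi. The means were 943 ± 172 CPM under the NonA RNAi label and 1266 ± 465 CPM in the controls (SD, n = 2 each). The log2 fold was -0.42 ± 0.51 (SE), with a 95% interval from -1.67 to 0.82 and an adjusted p of 0.968 in edgeR. Without control replicate 1 it was 0.0088.

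Syn holds another gene, Timp, on the opposite strand inside its span, and 249 exon bases of the pair overlap in the Ensembl annotation. Timp reads came to 9.58% and 15.7% of the Syn reads under the NonA RNAi label, against 10.3% and 57.5% in the controls. Whether counting used strand is not stated, so it is not known where reads of the shared bases were counted. Per library 0.219% to 0.317% of all entries were listed as ambiguous, and whether reads of the shared bases are among them is not stated either. Rim spans 2 small genes, CG12347 and CG43445, with 0 shared exon bases.

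The spread over the 4 libraries was itself unequal among the 7 genes. The highest level divided by the lowest was 1.31 for brp, 1.33 for RhoGAP100F, 1.38 for Rim and 1.42 for cac. It was 1.85 for dlg1, 1.94 for Syn and 3.20 for Liprin-alpha. The median of this ratio over the 5049 genes with a mean level in the range of the 7 was 2.11, and over all 9404 genes with a mean of at least 1 CPM it was 2.75. Of the 5049 genes, 5.84% had a smaller ratio than brp, 7.17% than RhoGAP100F, 9.19% than Rim, 11.0% than cac, 37.2% than dlg1, 42.6% than Syn and 76.5% than Liprin-alpha. These shares are a description, and the ratios were not tested.

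**Figure D3:**
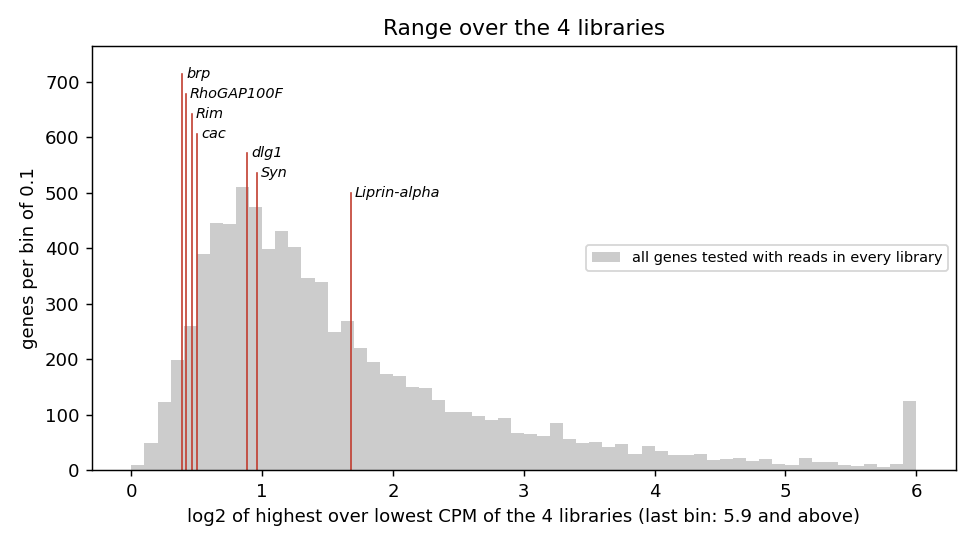
Histogram of the log2 of the highest over the lowest CPM of the 4 libraries, for the 8074 of 9404 genes with reads in every library, in bins of 0.1 with values of 5.9 and above in the last bin. Red lines mark the 7 genes; brp, RhoGAP100F, Rim and cac lie at the narrow end, at ratios of 1.31 to 1.42, and Liprin-alpha at 3.20.

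The lowest and highest values were not spread evenly over the libraries. NonA RNAi replicate 1 was the lowest library for 6 of the 7 genes, all but brp, and for 8 of the 12 pan-neuronal genes, against 27.4% of all 9404 genes. Control replicate 1 was the highest for 4 of the 7, namely brp, Rim, RhoGAP100F and Syn, against 26.1% of all genes. Summed over the 7 genes the level was 2044 and 2777 CPM under the NonA RNAi label, against 3193 and 2447 CPM in the controls. Without Syn the sum was 1223 and 1713 CPM under the NonA RNAi label, against 1598.5 and 1510 CPM in the controls. In these pooled cells, fewer cells of a type and less RNA per cell cannot be told apart.

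The level of brp relative to the summed reads of the 12 pan-neuronal genes was 1.22% and 0.876% under the NonA RNAi label, against 1.01% and 0.979% in the controls. cac was at 6.06% and 5.48% under the NonA RNAi label and at 4.69% and 6.48% in the controls. Liprin-alpha remained low in NonA RNAi replicate 1 on this scale, at 0.220% there and 0.407% in NonA RNAi replicate 2, against 0.401% and 0.604% in the controls. With edgeR scaled to these genes the log2 folds of the 7 ran from -0.68 for Liprin-alpha to 0.08 for brp, and 0 passed.

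Per kilobase of annotated exon, Syn was the most abundant of the 7 in all 4 libraries, at 141 to 275 CPM per kilobase. RhoGAP100F followed at 32.1 to 42.8 and cac at 29.2 to 41.3 CPM per kilobase, and these ranges overlapped. dlg1 at 14.7 to 27.2 and Rim at 14.2 to 19.6 CPM per kilobase formed the next overlapping pair. brp at 4.90 to 6.41 and Liprin-alpha at 2.03 to 6.50 CPM per kilobase were lowest and also overlapped. Between these steps the ranges over the 4 libraries did not overlap. The deposited RPKM gave the same order except that brp, at 0.73 RPKM, came below Liprin-alpha, at 1.26 RPKM. The listed length of Liprin-alpha, 8865 bases, holds 6208 exon bases in the Ensembl annotation, whereas that of brp, 37554 bases, holds 13371.

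**Figure D4:**
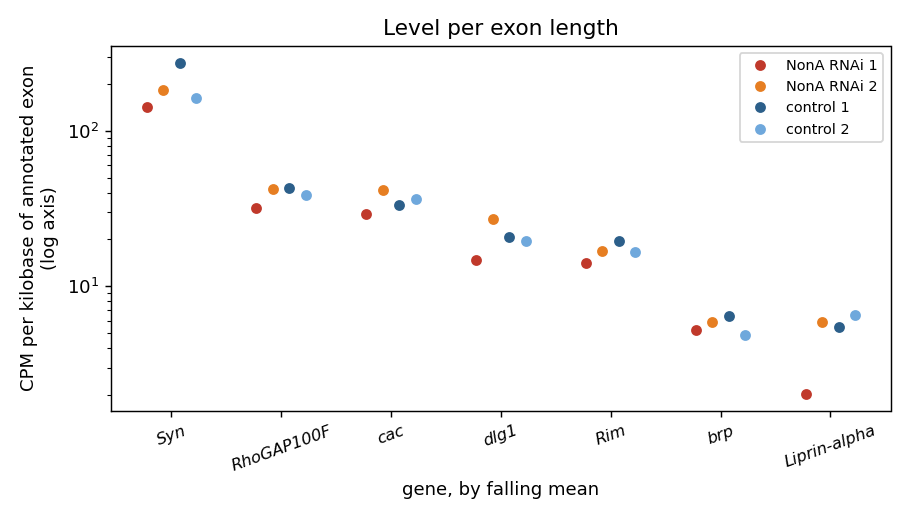
Level of each gene per kilobase of annotated exon (CPM per kilobase, log axis) in the 4 libraries, ordered by falling mean. Syn stands above the rest at 141 to 275 CPM per kilobase, and brp and Liprin-alpha lie lowest, at 6.50 or less.

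Among the partners of the active zone scaffolds, 22 of 23 listed genes were found in the files and 17 passed the filter, of which 6 had a log2 fold above and 11 below 0. Their median log2 fold was -0.12, beside 0.02 over all genes tested. In edgeR 0 passed (0 at an unadjusted p under 0.05), and DESeq2 and limma called 0. The genes with the highest levels were the priming factor gene unc-13, the kinesin gene unc-104 that carries vesicle precursors, the protein kinase A gene Pka-C1 and Rab3, the gene of a vesicle GTPase. unc-13 was at 1840.2 and 3172 CPM under the NonA RNAi label, against 2962 and 2482 CPM in the controls. Like cac and dlg1, it had its lowest and its highest value under the NonA RNAi label. The log2 folds of unc-104, Pka-C1 and Rab3 were -0.15, -0.32 and -0.06. CG43073, the gene of the RIM-binding protein that links Rim to cac, was at 134 and 86.6 CPM under the NonA RNAi label against 206 and 127 CPM in the controls, a log2 fold of -0.59 ± 0.49 (SE).

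For 2 of the 17 both libraries labelled NonA RNAi lay above both controls, beside 15.4% of all genes, and for 2 below, beside 16.7%. These 4 were picked out after their values were seen, apart from Gie, which was named by rule. Gie, the Arl8 GTPase gene for the transport of active zone precursors, was at 42.6 and 58.9 CPM under the NonA RNAi label, against 81.1 and 72.5 CPM in the controls, a log2 fold of -0.60 ± 0.43. (SE) The guanine nucleotide exchange factor gene trio was at 267 and 559 CPM under the NonA RNAi label, against 661 and 572 CPM in the controls. The genes above both controls were rab3-GEF, with a log2 fold of 0.51, and Rph, the gene of the Rab3 effector rabphilin, with 0.16.

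Of 12 listed partners and companions of Discs large, 11 were found in the files and 8 passed the filter, with a median log2 fold of -0.38, 2 above and 6 below 0. With the CPM minimum 11 were tested and the median was -0.06. In edgeR 0 passed (0 at an unadjusted p under 0.05 with the RPKM minimum and 1 with the CPM minimum), and DESeq2 called 0. scrib, the gene of the polarity scaffold Scribble, was at 70.0 and 130 CPM under the NonA RNAi label, against 137 and 653 CPM in the controls, and its log2 fold of -1.98 ± 0.83 (SE) had an adjusted p of 0.938 in edgeR. gukh, whose product links Discs large to Scribble, was at 218 and 98.0 CPM under the NonA RNAi label, against 424 and 249 CPM in the controls. Both genes lay below both controls in the 2 libraries labelled NonA RNAi, as 16.7% of all genes tested did, and of the 8 genes only raps, or pins, lay above both, as 15.4% of all genes did, with a log2 fold of 0.23. Atpalpha, the sodium pump gene, Caki, the gene of the scaffold CASK, and the kinesin gene Khc-73 had high levels, with log2 folds of -0.32, -0.59 and 0.05. Sh, the potassium channel gene whose product Discs large clusters, was at 159 and 501 CPM under the NonA RNAi label against 404 and 284 CPM in the controls.

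Over 4 libraries the genes most like brp in pattern, among 7277 with a mean of at least 10 CPM, were Taf1, Arp87C and Atg12, with a root mean square difference of centred log2 levels of 0.023, 0.025 and 0.027. Those most like cac were jigr1, CG11255 and CG9062, at 0.026, 0.034 and 0.034. Among the 7 genes, Rim and RhoGAP100F were the closest pair, at 0.076, and brp and Liprin-alpha the farthest, at 0.63.

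Markers of other cells moved between the libraries beside these values. The summed level of 12 glial markers was 774 and 2423 CPM under the NonA RNAi label, against 1986 and 6305 CPM in the controls, and gcm was at 0 in 3 libraries. For 11 photoreceptor markers it was 157 and 277 CPM under the NonA RNAi label, against 388 and 544 CPM in the controls, with Rh4, Rh6, trp and ninaC at 0 in NonA RNAi replicate 1, chp in NonA RNAi replicate 2 and Rh6 in control replicate 1. For 10 fat body and hemocyte markers it was 129 and 275 CPM under the NonA RNAi label, against 2502 and 258 CPM in the controls, with reads for 3 and 7 of them in the first group and for 9 and 8 in the controls, and Lsp2, Lsp1alpha and fit at 0 in both libraries labelled NonA RNAi. Of these, fit was also at 0 in control replicate 2 and Lsp1alpha had 2 reads there, against 3623 and 1551 in control replicate 1. For 7 muscle markers the summed level was 227 and 1.87 CPM under the NonA RNAi label, against 8.31 and 5.80 CPM in the controls. NonA RNAi replicate 1, the low library for 6 of the 7 genes, thus had the lowest glial sum and the highest muscle sum. Its pan-neuronal, photoreceptor, and fat body and hemocyte sums were also the lowest. It was the highest library for 7 of the 10 PDF and clock neuron markers. The glial markers did not all follow their sum: this library was the lowest for 5 of the 12 and the highest for 2. Of all 9404 genes it was the lowest for 27.4% and the highest for 32.6%. Pdf took 1.84% and 8.66% of gene reads under the NonA RNAi label, against 0.498% and 0.216% in the controls. Of the 10 PDF and clock neuron markers, 9 had a log2 fold above 0 and 1 below, with a median of 0.59. For 7 of them both libraries labelled NonA RNAi lay above both controls, beside 15.4% of all genes, and for 0 below, beside 16.7%. In edgeR 0 of the 10 passed, and DESeq2 called 1. With the RPKM minimum DESeq2 also called 3 of 6 photoreceptor markers and 3 of 9 fat body and hemocyte markers, all lower. It called 0 of 10 glial markers and 0 of 1 muscle marker, beside 1.86% of all genes. Below both controls lay 4 of the 6 photoreceptor and 3 of the 9 fat body and hemocyte markers, beside 16.7% of all genes. The part of these differences in the levels of the 7 genes was not tested.

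**Figure D5:**
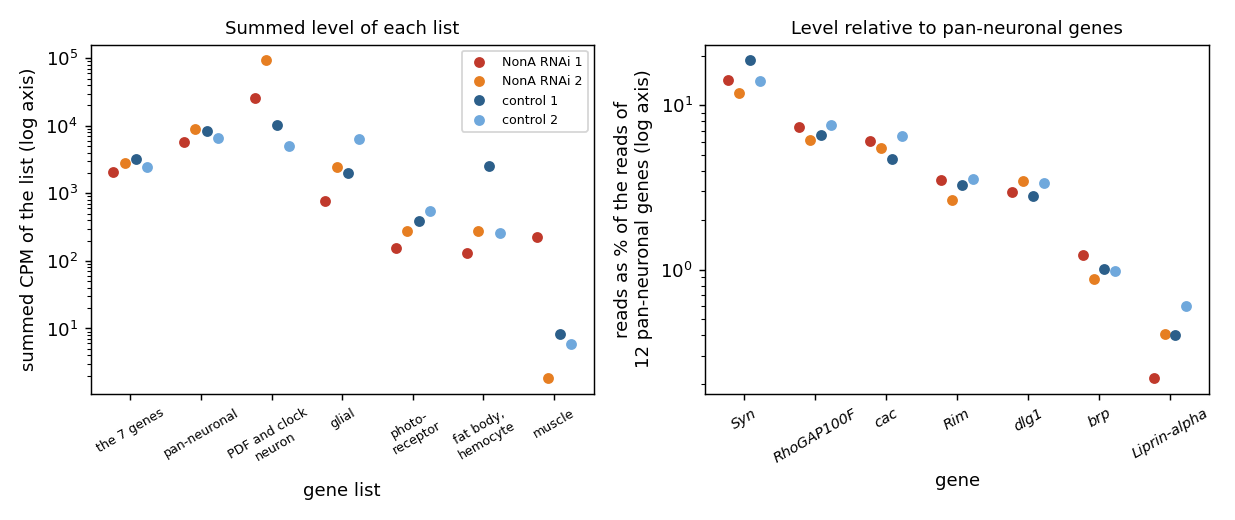
Left, the summed CPM of each gene list in each library (log axis); right, the reads of each of the 7 genes as a percent of the reads of the 12 pan-neuronal genes (log axis). The sums of the 7 genes lie between 2044 and 3193 CPM, while those of the fat body and hemocyte markers run from 129 to 2502 CPM.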

How the data were processed

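Per the submitters' processing notes, reads were processed with TopHat2 2.1.1 and Cufflinks on build dm3; the sources used here do not name the read counter or annotation, nor say whether strand was used. The deposited files list, per the file headers, the raw read count of each gene symbol, its length and the RPKM the authors computed from it. The listed length is other than a transcript length: for the 7 genes it lay near the whole gene span in Ensembl 115 (BDGP6, used for lengths, chromosome arms and overlaps, not coordinates). The 4 entries that name no gene stayed out of library sizes; per library, reads without a feature were 27.8% to 32.5% and reads with several places 45.2% to 55.6% of all entries, and gene reads 15.9% to 22.0%.

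Counts were scaled to the sum of gene reads (CPM). Genes were kept at a mean of at least 1 RPKM, or 1 CPM where no length is listed. Testing used edgeR 4.0.16 in R 4.3.3, with its two-sided quasi-likelihood test, Benjamini-Hochberg adjustment over all genes kept, threshold 0.05. The standard error (SE) of a log2 fold was derived from its F statistic. The common dispersion was 0.352. Alternatives were other scalings, filters, the replicate number as a block, DESeq2 1.42.0, limma 3.58.1 with pseudocounts of 1 and 5, and each library left out; the filter of 1 CPM was added after the data were seen.

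The 7 genes and the lists were chosen with earlier results of these data known. List members were matched by symbol or RefSeq synonym; wrong synonyms were corrected after the files were read. Named were the 7 genes, all calcium channel subunits and, of each other list, the 4 with the highest mean CPM and the 2 with the smallest p; marker lists are given as sums.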

Additional observations from a re-analysis of the deposited data

How the results depend on the processing

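Across 92 alternative values of the 7 genes 0 passed the threshold. In 15 the sign turned. For brp the log2 fold was 0.020 with TMM and 0.077 with scaling to pan-neuronal genes; for cac it was -0.0059 with the replicate number as a block, -0.0058 and -0.0056 with limma at pseudocounts of 1 and 5; for dlg1 it was -0.010, -0.010 and -0.0088 in the same order. With each library left out, it ranged from -0.21 to 0.18 for brp, -0.26 to 0.24 for cac, -0.35 to 0.048 for RhoGAP100F, -0.45 to 0.43 for dlg1, -0.76 to 0.0088 for Syn, -0.35 to -0.11 for Rim and -1.56 to -0.03 for Liprin-alpha. The count of genes called was 79 without a filter and 135 with DESeq2, and 0 to 30 with a library left out. The causes were not tested. TMM and median-of-ratios scaling moved the median of all genes by 0.016 and -0.016, and leaving out NonA RNAi replicate 1 by -0.12 (log2). Same-numbered libraries deviated from their group means with a correlation of -0.0054 over 7277 genes. With 2 libraries per group this value cannot decide whether same-numbered libraries were handled together, and the labels do not say. The replicate number as a block left the count of genes called at 0. At a minimum of 5 RPKM only RhoGAP100F and Syn could be fitted. For the lists, 19 of 125 alternative medians moved by more than the spread between replicates. Liprin-alpha, with 122 reads in 1 library, had the fewest reads of the 7 genes, and its replicates under the NonA RNAi label differed by more than counting error.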

Other observations

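The neuroligin gene CG31146 (Nlg1), a member of both partner lists that the rule for named genes did not take, was picked out after its values were seen. It was at 191 and 5.96 CPM under the NonA RNAi label, against 1.31 and 45.3 CPM in the controls, a ratio of 146 between the highest and the lowest library. neuroligin (Nlg2), CG34127 (Nlg3) and CG34139 (Nlg4) had ratios of 2.64, 1.46 and 1.72. Among the pan-neuronal genes the SNARE gene Snap25 was at 228 and 1531 CPM under the NonA RNAi label, against 1271 and 608 CPM in the controls, a ratio of 6.71, while n-syb, the gene of the vesicle SNARE, had a ratio of 1.13 and Appl one of 1.16.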
